A study of Mus musculus with 6 samples.

Results

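A set of 10 genes for proteins that bind actin or tie it to the cell membrane was followed through mouse hippocampus after cerebral ischemia and reperfusion. The genes were Msn, Ezr and Rdx, which encode the ERM proteins moesin, ezrin and radixin, and Flna, Tagln2, Actn1, Tpm4, Myl9, Iqgap1 and Vasp. Each was found by its gene name in the deposited table, which held 41386 genes in all, and all 10 passed the filter on low counts that left 18569 genes for testing. The data were RNA-seq read counts from 3 libraries of ischemia/reperfusion (I/R) mice and 3 libraries of sham-operated mice. The mice were wild-type C57BL/6 males, 56 days old. In the I/R group a filament closed the left middle cerebral artery for 1.5 h, followed by 24 h of reperfusion, while the sham group had the operation without the filament. Per the study's methods, the hippocampi came from the operated side and 3 were pooled for each library, so that n = 3 counts pools and p-values measure the spread between pools.

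Actin filaments form a thin cortex under the cell membrane, and most cells rebuild it when they move, divide, engulf material or change shape. ERM proteins switch between a folded resting form and an open form that holds a membrane protein at one end and an actin filament at the other. Moesin is the main ERM protein of leukocytes and endothelium, ezrin of many epithelia and of fine astrocyte processes, and radixin is found in many cell types including neurons. The other listed proteins crosslink filaments (filamin A, alpha-actinin-1), coat and stabilise them (tropomyosin 4, transgelin-2), drive their contraction (the myosin regulatory light chain of Myl9), scaffold signalling to them (IQGAP1) or help them grow (VASP).

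The sequence just upstream of the transcription start is shown for the genes in which a script found a motif of a factor linked to actin genes. Promoter windows came from RefSeq on GRCm38.p6, with 250 bases before and 50 after each start, and all 10 genes had at least 1 window (11 windows in all, since Rdx had 2). Searched on both strands were the CArG box of serum response factor, the AP-1 motif TGANTCA and the TEAD motif GGAATG, which reads CATTCC on the opposite strand, and no matches overlapped. The 250 bases before the start are printed 5′ to 3′ on the strand of the gene, with the match in capitals.
Myl9 (chr2:156775214-156775463, plus strand, CArG box): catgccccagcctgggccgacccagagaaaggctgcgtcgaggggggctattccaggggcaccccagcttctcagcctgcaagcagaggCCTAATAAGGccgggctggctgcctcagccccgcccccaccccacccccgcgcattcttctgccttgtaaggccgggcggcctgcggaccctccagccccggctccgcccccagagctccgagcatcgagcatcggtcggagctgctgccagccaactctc
Ezr (chr17:6782781-6783030, minus strand, AP-1): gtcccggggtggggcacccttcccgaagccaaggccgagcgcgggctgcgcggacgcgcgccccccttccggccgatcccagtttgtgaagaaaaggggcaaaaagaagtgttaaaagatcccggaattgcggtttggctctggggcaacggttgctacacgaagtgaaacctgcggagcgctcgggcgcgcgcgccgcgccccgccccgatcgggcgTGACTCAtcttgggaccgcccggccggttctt
Tagln2 (chr1:172499996-172500245, plus strand, TEAD): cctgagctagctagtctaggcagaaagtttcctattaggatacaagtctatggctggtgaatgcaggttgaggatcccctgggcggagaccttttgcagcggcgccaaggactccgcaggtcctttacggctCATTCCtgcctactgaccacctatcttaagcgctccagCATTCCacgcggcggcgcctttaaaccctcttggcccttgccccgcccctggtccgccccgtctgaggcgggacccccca
Flna (chrX:74246535-74246784, minus strand, TEAD): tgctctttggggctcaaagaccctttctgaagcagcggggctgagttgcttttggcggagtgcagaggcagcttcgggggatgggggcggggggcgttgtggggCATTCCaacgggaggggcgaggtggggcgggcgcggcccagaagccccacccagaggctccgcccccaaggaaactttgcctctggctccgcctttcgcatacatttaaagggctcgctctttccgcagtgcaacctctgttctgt
The CArG box lay 161 bases before the start of Myl9, the only listed gene that fell. Among all 32851 windows of the same length, 1.63% held a CArG box, against 1 of the 11 windows here. The AP-1 match lay 32 bases before the start of Ezr, and 7.81% of all windows held one. The TEAD matches lay 118 and 80 bases before the start of Tagln2 and 146 before that of Flna, and 14.7% of all windows held one. Windows of the other 6 genes held none of these letters. A match is a description of the sequence, not a binding site.

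Library totals were 37527226 to 39553637 counts over the I/R libraries and 37493042 to 44788547 in sham. The 3 I/R libraries did not lie close together: of the 9 listed genes that rose, I/R replicate 1 had the highest level in 9. It was also the highest of the 3 I/R libraries in 73.1% of all genes called higher and in 41.8% of all tested genes. Summed markers of neurons were 2060, 3790 and 4180 CPM (counts relative to a library size scaled by edgeR's TMM method) in replicates 1, 2 and 3 after I/R versus 7360 to 7730 in sham, with 8 of 8 markers called lower. Without a single sham library 4 to 6 of the 8 neuron markers were called lower, and with no filter on low counts 5, with 0 called higher in each case. All 8 markers of hippocampus had counts, and their sum was 250, 573 and 635 CPM in I/R replicates 1, 2 and 3 and between 1120 and 1170 CPM for sham. Of these 8 markers 7 were called lower and 0 higher. With library size as the only scaling 5 were called lower, without a single sham library 4 to 5, and with no filter on low counts 4. Choroid plexus markers stood apart in 2 libraries, at 33.7 CPM in I/R replicate 3 and 36.8 in sham replicate 1 against 1600 to 4420 in the other 4, so results are also given without these libraries where that changed a call. In bulk tissue, fewer cells of a type and less RNA per cell cannot be told apart.

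The comparison asked which genes differed between I/R and sham hippocampus 24 h after blood flow returned. By edgeR's quasi-likelihood test, all 10 listed genes were called, that is, they had a Benjamini-Hochberg adjusted p under 0.05 over all tested genes and a fold change over 1.2. Of these, 9 were higher in I/R and 1, Myl9, was lower, where 41.8% of all tested genes were called, 21.8% higher and 19.9% lower. Log2 fold changes are given ± their standard error (SE). Their median over the 10 genes was 1.36, against 0.03 over all tested genes. The I/R and sham libraries did not overlap in any of the 10, which was so in 57.4% of all tested genes (29.3% with I/R higher and 28.1% with I/R lower). With a fold change over 2, 6 of the 10 were called, all higher, where 10.2% of tested genes were called higher by that rule and 4.67% lower. An exact permutation test of a single gene gave p = 0.1 for each of the 10, the smallest value that 3 libraries against 3 allow. The plot of levels by library shows each gene in all 6.

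**Figure D1:**
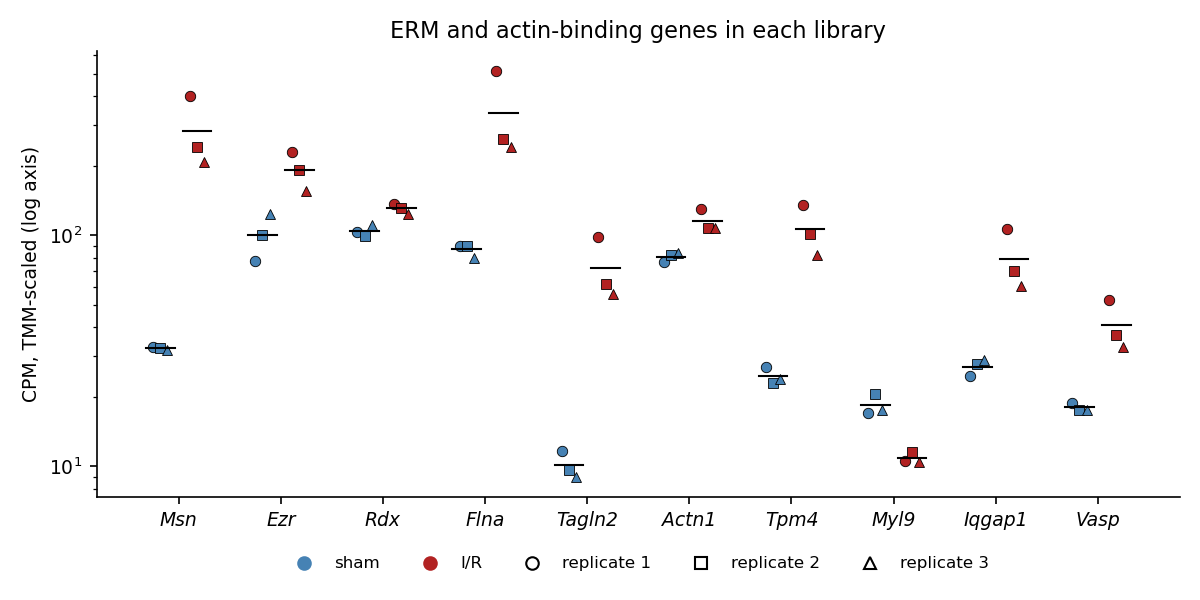
Level of each listed gene in each library, in TMM-scaled CPM on a log axis, with sham in blue, I/R in red, a marker shape for each replicate number and a black line at the group mean. The I/R points lie above all sham points in 9 genes and below them in Myl9, and the I/R replicate 1 circle is the top point of each gene that rose.

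Msn rose most. It is on chromosome X from 91385287 to 91460143 (BALB/cJ assembly, the build of the deposited table, as for every gene position here). Its counts were 18247, 9638 and 8333 in replicates 1, 2 and 3 after I/R versus 1282, 1323 and 1096 in sham, so that every I/R library lay far above every sham library while the sham libraries lay close together. The level was 283 ± 103 CPM after I/R versus 32.4 ± 0.505 CPM in sham (SD, 3 libraries each), an 8.74-fold rise and a log2 fold change of 3.13 ± 0.24 (edgeR adjusted p = 0.00028). Only 1.99% of tested genes rose more on the log2 scale. The study picked Msn as an immune gene changed both in these libraries and in its proteome, so the rise here is not independent evidence. The study also measured the picked genes by RT-PCR in hippocampus and reported results that matched its RNA-seq. In a microglial cell line deprived of oxygen and glucose and then reoxygenated, it reported no significant change of moesin protein.

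Ezr, on chromosome 17 from 3833323 to 3879659, rose less and with more spread in sham. Its level was 228, 192 and 155 CPM in replicates 1, 2 and 3 after I/R versus 77.2, 100 and 123 CPM in sham replicates 1, 2 and 3. The lowest I/R library stood above the highest sham library, but the gap was small beside the range within each group. The log2 fold change was 0.94 ± 0.19 (edgeR adjusted p = 0.0067), a 1.92-fold rise. Without I/R replicate 1 it was 0.79 and the call was lost (edgeR adjusted p = 0.0804). In sham, Ezr was lowest in the library low in choroid plexus markers, and in I/R it was lowest in the other such library. Without these 2 libraries the log2 fold change was 0.90 (edgeR adjusted p = 0.0153), and with the choroid plexus markers as a covariate 0.99 (edgeR adjusted p = 0.00222).

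Rdx, on chromosome 9 from 49187625 to 49229583, had the smallest rise. Its level was 137, 131 and 124 CPM after I/R versus 103, 99.2 and 111 CPM in sham. Both groups were tight and did not overlap, and the mean moved from 104 ± 5.74 CPM in sham to 131 ± 6.43 CPM in I/R (SD, 3 libraries each). The log2 fold change was 0.33 ± 0.08 (edgeR adjusted p = 0.0162), a 1.25-fold rise that lies close to the fold limit of 1.2. The call was lost without I/R replicate 2, sham replicate 1 or sham replicate 2 (edgeR adjusted p = 0.062, 0.0738 and 0.0806, log2 fold changes 0.30, 0.31 and 0.28) and without the 2 libraries low in choroid plexus markers (0.34, edgeR adjusted p = 0.0977).

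The ERM genes thus rose by unequal amounts, and their balance could be read within each library, where library scaling has no part. Levels of different genes were compared as FPKM, read fragments scaled to gene length and library depth, as deposited. Msn made up 51.0%, 41.8% and 42.4% of the summed ERM FPKM in replicates 1, 2 and 3 after I/R versus 16.2%, 14.2% and 12% in sham, with a wide gap between the groups. Ezr held the largest share in every sham library, 48.6%, 55.9% and 59.1%, and 37%, 42.4% and 40.2% in I/R. The share of Rdx was 31.4 ± 3.4% in sham and 15.1 ± 2.77% in I/R (SD, 3 libraries each), with no overlap. In sham the order of levels was Ezr, Rdx, Msn (48.0 ± 10.9, 27.2 ± 1.63 and 12.2 ± 0.206 FPKM). In I/R the means were 129 ± 53.3 for Msn, 110 ± 25.8 for Ezr and 40.7 ± 3.75 for Rdx, where the first pair did not differ beyond their spread. The log2 ratio of Msn to Ezr was 2.12 higher in I/R than in sham, that of Msn to Rdx 2.74 higher and that of Ezr to Rdx 0.62 higher (exact two-sided permutation p = 0.1 for each of the 3 pairs, the smallest possible). With counts divided by the table's own length column in place of FPKM, the share of Msn was 44.5% after I/R versus 13.6% in sham.

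**Figure D2:**
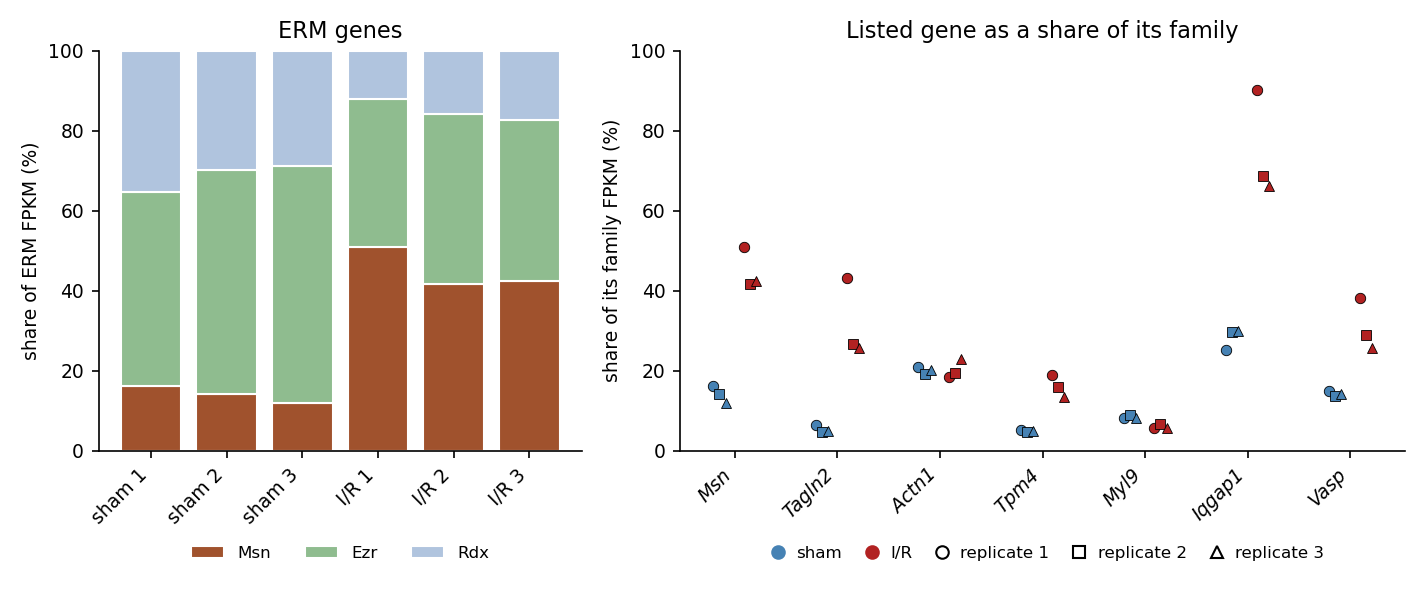
Left, the share of each ERM gene in the summed ERM FPKM of each library, in percent. Right, the share of 7 listed genes in the summed FPKM of their own family, in percent, with a point per library: the groups lie apart for Msn, Tagln2, Tpm4, Myl9, Iqgap1 and Vasp and overlap for Actn1.

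Among proteins that tie ERM to the membrane or regulate it, 5 of 12 tested genes were called higher and 1 lower, with a median log2 fold change of 0.23. Of all tested genes 21.8% were called higher and 19.9% lower. With library size as the only scaling 8 of the 12 were called higher and 1 lower, where 34.1% of all tested genes were called higher and 10.9% lower. Limma on log2(FPKM + 1) also called 8 higher and 1 lower. Cd44, a hyaluronan receptor that ERM proteins hold to actin, rose from 3.59 ± 0.941 CPM in sham to 83.3 ± 22.6 CPM in I/R (SD, 3 libraries each; log2 fold change 4.53 ± 0.26, edgeR adjusted p = 0.000169). Icam1, an adhesion receptor for leukocytes, had a log2 fold change of 2.56 ± 0.51 (edgeR adjusted p = 0.00592), but without I/R replicate 1 it was 1.98 and was not called (edgeR adjusted p = 0.0759). Without the 2 libraries low in choroid plexus markers it was 3.39. Selplg, the selectin ligand PSGL-1 of leukocytes and microglia, fell by 1.45 ± 0.16 on the log2 scale (edgeR adjusted p = 0.000762).

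Markers of some other cells rose alongside the ERM genes. Summed markers of monocytes and macrophages were 70.4, 38.1 and 41.6 CPM in replicates 1, 2 and 3 after I/R versus 12.4 to 16.3 CPM in sham, with 5 of 6 tested genes called higher. Those of neutrophils were 40.3, 9.86 and 10.2 CPM after I/R versus 4.13 to 5.71 CPM in sham, with 4 of 5 tested called higher and the defining marker Ly6g at 3 counts or fewer in every library. With at least 10 counts required in every library, only 1 neutrophil marker was tested, and it was not called (log2 fold change 0.31). Without a single sham library, 1 to 5 of 6 tested neutrophil markers were called higher, so this count is unstable. Those of endothelium were 482, 352 and 300 CPM after I/R versus 213 to 218 CPM in sham, with 6 of 8 called higher and 1, the transporter gene Slco1a4, lower (log2 fold change -1.17, edgeR adjusted p = 0.0181). The call of Slco1a4 was lost without any single sham library, where 5 of 8 endothelial markers were called higher, and with no filter on low counts. For homeostatic microglia the sums were 174 to 235 CPM after I/R versus 190 to 209 CPM in sham, with 2 of 7 called higher and 4 lower. The part of these cells in the levels of the listed genes was not tested.

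Flna and Actn1 encode crosslinkers, filamin A joining filaments into a loose net and alpha-actinin-1 into bundles. Flna, on chromosome X from 69229863 to 69256319, had counts of 23358, 10434 and 9655 after I/R versus 3518, 3666 and 2754 in sham. I/R replicate 1 held more than the other I/R libraries together, and all 3 lay above sham. The level was 339 ± 152 CPM after I/R versus 86.8 ± 5.84 CPM in sham (SD, 3 libraries each), a log2 fold change of 1.96 ± 0.28 (edgeR adjusted p = 0.00162), and it was 1.53 without I/R replicate 1. Actn1, on chromosome 12 from 77853452 to 77948073, was at 130, 108 and 108 CPM after I/R versus 76.8, 81.8 and 83.9 CPM in sham. Its rise was smaller and even over the I/R libraries, with a log2 fold change of 0.51 ± 0.10 (edgeR adjusted p = 0.00489). Actn1 shares 6.79% of its 50-base stretches with transcripts of other genes, Actn4 among them, so part of its count is uncertain.

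Their relatives were measured too. Flnc, the filamin of muscle, stood at 168, 168 and 167 counts in sham and at 12576, 4700 and 3745 in I/R. This was the largest rise among the paralogs of the listed genes, a log2 fold change of 5.2 ± 0.44 (edgeR adjusted p = 0.000337), or 4.57 without I/R replicate 1. Of the other actinins, Actn4 was called higher (log2 fold change 0.56 ± 0.17, edgeR adjusted p = 0.0307) but not without any 1 of 4 libraries, I/R replicate 2 or a sham library (edgeR adjusted p = 0.0674 to 0.116). Actn2, the actinin of muscle and of dendritic spines, fell by 0.83 ± 0.12 (edgeR adjusted p = 0.00182), and Actn3, with 33 to 69 counts in I/R libraries and 43 to 50 in sham libraries, was not called (edgeR log2 fold change 0.10). The share of Actn1 in actinin FPKM was 20.3 ± 2.34% after I/R versus 20.0 ± 0.88% in sham (SD, 3 libraries each; exact permutation p = 0.9), a difference in log2 ratio of 0.02 with a pooled SD of 0.16. With the table's length column the share was 33.6% after I/R versus 32.6% in sham.

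Tagln2 and Tpm4 encode proteins that lie along filaments. Tagln2, whose product transgelin-2 is abundant in leukocytes and endothelium, is on chromosome 1 from 171616400 to 171623935. Its counts were 4493, 2461 and 2223 after I/R versus 456, 392 and 311 in sham, and the lowest I/R library held several times the highest sham library. The log2 fold change was 2.83 ± 0.23 (edgeR adjusted p = 0.000315), a 7.11-fold rise, from 10.1 ± 1.38 to 72.0 ± 23.4 CPM (SD, 3 libraries each). Tagln2 was a minor transgelin in sham, at 6.39%, 4.62% and 5.03% of transgelin FPKM, and it held 43.2%, 26.6% and 25.7% in I/R. With the table's length column in place of the FPKM lengths, its mean share was 22.1% after I/R versus 3.28% in sham.

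Tagln, the transgelin of smooth muscle, rose less, by a log2 fold change of 0.89 ± 0.23 (edgeR adjusted p = 0.0176), and was not called without sham replicate 1 or 3 (edgeR adjusted p = 0.0594 and 0.0692). Tagln3, the neuronal transgelin, was at 154 ± 24.5 FPKM after I/R versus 165 ± 12.8 FPKM in sham (SD, 3 libraries each). On the TMM scale of the test it was at 136, 199 and 193 CPM after I/R versus 212, 246 and 214 CPM in sham. It was not called (log2 fold change -0.35, edgeR adjusted p = 0.108). The log2 ratio of Tagln2 to the other transgelins was 3.03 higher in I/R than in sham (exact permutation p = 0.1, the smallest possible, Benjamini-Hochberg adjusted 0.133). The calponins Cnn3 and Cnn2, related actin-binding proteins, were called higher at log2 fold changes of 1.11 and 1.0 (edgeR adjusted p = 0.000631 and 0.00555).

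Tpm4, a short tropomyosin of non-muscle cells, is on chromosome 8 from 69812419 to 69830292. Its counts were 6150, 4034 and 3286 after I/R versus 1045, 933 and 826 in sham, with no overlap. The level rose 4.32-fold, from 24.6 ± 1.97 to 106 ± 26.8 CPM (SD, 3 libraries each), with a log2 fold change of 2.11 ± 0.18 (edgeR adjusted p = 0.000342). Of its 50-base stretches, 15.7% also lay in transcripts of other genes, and 2 genes overlap it on the other strand with at most 132 counts in a library, so its count is the least certain of the 10 in this respect. Of the other tropomyosins, Tpm3 was called higher at 0.46 ± 0.11 (edgeR adjusted p = 0.013) but not without sham replicate 2 or 3 (edgeR adjusted p = 0.0594 and 0.0653) nor without the 2 libraries low in choroid plexus markers (edgeR adjusted p = 0.0666). Tpm1 (log2 fold change -0.22, edgeR adjusted p = 0.144) and Tpm2 (0.37, edgeR adjusted p = 0.265) were not called, and Tpm1 was at 0.03 with library size as the only scaling. Tpm4 held 18.8%, 16.0% and 13.4% of tropomyosin FPKM after I/R versus 4.57% to 5.24% in sham. With the table's length column its mean share was 21.4% after I/R versus 6.68% in sham.

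Myl9 was the gene of the 10 that fell. It encodes the myosin regulatory light chain of smooth muscle and of pericytes, whose phosphorylation starts contraction, and is on chromosome 2 from 155548876 to 155555293. Its counts were 481, 463 and 420 after I/R versus 663, 834 and 604 in sham. The I/R libraries were nearly level with one another, and all 3 lay below the lowest sham library, I/R replicate 1 included. The level was 10.9 ± 0.605 CPM after I/R versus 18.4 ± 1.9 CPM in sham (SD, 3 libraries each), a log2 fold change of -0.75 ± 0.12 (edgeR adjusted p = 0.00266), that is, 1.69-fold lower. It stayed lower under every scaling tried, with log2 fold changes of -0.82 to -0.47 over all 18 alternatives.

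The other light chains split. Myl12a rose from 30.4 ± 3.63 to 90.6 ± 28.3 CPM (SD, 3 libraries each; log2 fold change 1.58 ± 0.21, edgeR adjusted p = 0.00138), while Myl12b, the neighbouring and very similar gene, fell by 0.69 ± 0.12 (edgeR adjusted p = 0.00349). Close copies can exchange reads, so this pair is uncertain. Myl9 held 6.04 ± 0.562% of light chain FPKM after I/R versus 8.41 ± 0.413% in sham (SD, 3 libraries each), a difference in log2 ratio of -0.52. Among heavy chains, the non-muscle Myh9 rose by a log2 fold change of 1.38 (edgeR adjusted p = 0.00227) while Myh14 fell by 1.34 (edgeR adjusted p = 0.00321) and the smooth muscle Myh11 by 0.84 (edgeR adjusted p = 0.0061). Myh11 was not called by limma on log2(FPKM + 1) or log2(FPKM + 0.1), at -0.43 and -0.55 (adjusted p = 0.0635 and 0.0625).

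Markers of mural cells, the pericytes and smooth muscle cells around vessels, did not all move with Myl9. Their summed level ranged from 197 to 249 CPM after I/R versus from 222 to 236 CPM in sham, with 3 of 9 genes called higher and 3 lower, which became 4 higher and 1 lower with library size as the only scaling and 3 higher and 0 lower by limma on log2(FPKM + 1). Pdgfrb, the growth factor receptor of pericytes, was called higher at 0.69 (edgeR adjusted p = 0.0302), and Rgs5, another pericyte gene, fell by 0.43 (edgeR adjusted p = 0.0282). Both calls were unstable: that of Pdgfrb was lost without I/R replicate 2 or any single sham library (edgeR adjusted p = 0.0607 to 0.109), and that of Rgs5 without any single sham library (edgeR adjusted p = 0.0782 to 0.0817), without the 2 libraries low in choroid plexus markers (edgeR adjusted p = 0.0574) and with library size as the only scaling, where it was at -0.18. Acta2, smooth muscle actin, had overlapping groups and a log2 fold change of 0.18 (edgeR adjusted p = 0.628). The part of mural cells in the fall of Myl9 was not tested.

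**Figure D3:**
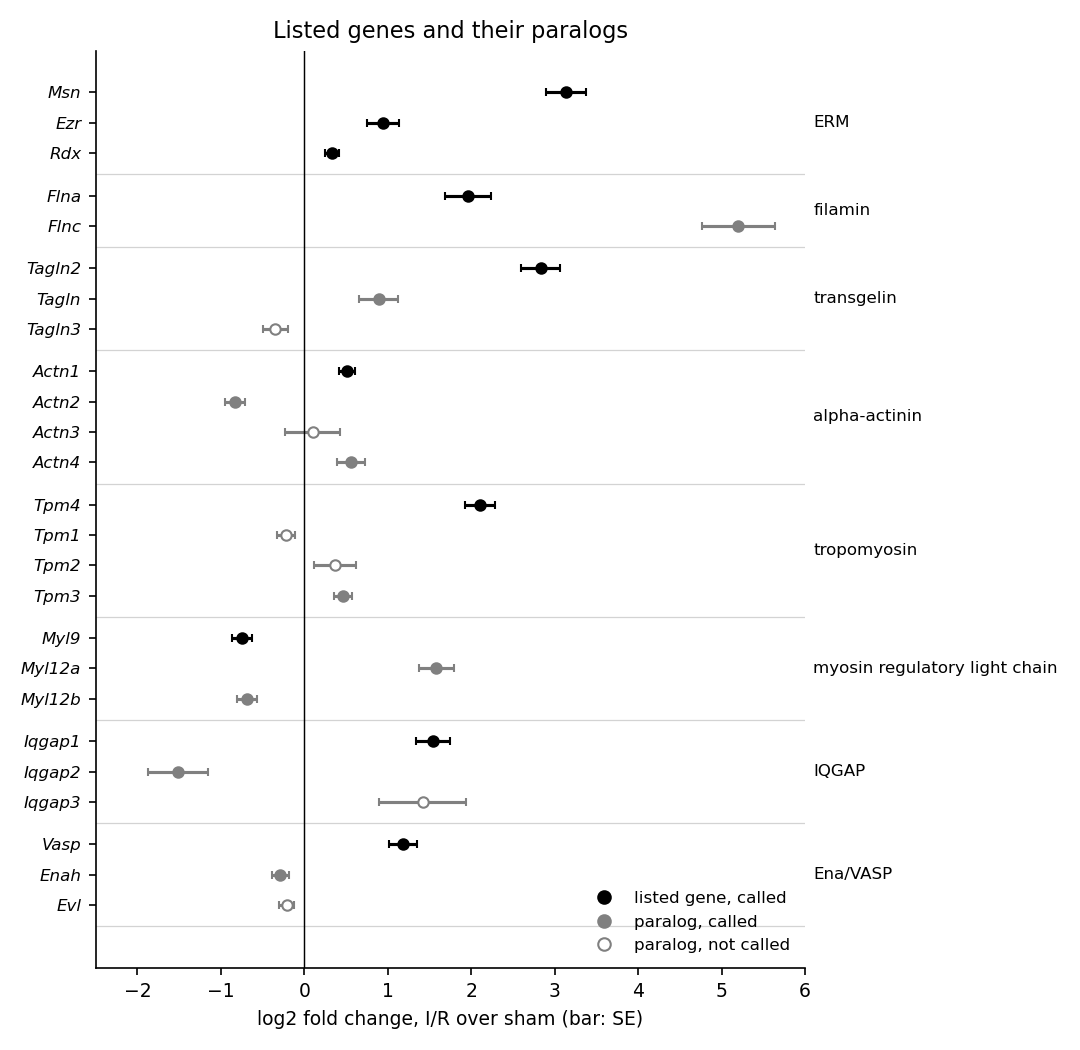
log2 fold change of I/R over sham (edgeR, TMM scaling) with its SE for the 10 listed genes (black) and tested paralogs (grey), grouped by family, with open circles for genes not called. Msn at 3.13 and Flnc at 5.2 lie farthest to the right, and Myl9 at -0.75 is the listed gene to the left of 0.

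Iqgap1 encodes a scaffold that links Rac1 and Cdc42 signalling to actin and to cell contacts, and is on chromosome 7 from 80439401 to 80556025. Its counts were 4805, 2799 and 2415 after I/R versus 956, 1130 and 990 in sham. All I/R libraries lay well above sham, replicate 1 highest. The level was 78.7 ± 23.8 CPM after I/R versus 27.0 ± 2.25 CPM in sham (SD, 3 libraries each), a log2 fold change of 1.54 ± 0.20 (edgeR adjusted p = 0.0012). Its paralog Iqgap2 went the other way, with counts of 1006, 2753 and 2604 after I/R versus 6124, 5829 and 5025 in sham. Here I/R replicate 1 was the lowest library, and the log2 fold change was -1.52 ± 0.36 (edgeR adjusted p = 0.0122). That call was lost when no filter on low counts was applied (edgeR adjusted p = 0.0962). Iqgap3, a gene of dividing cells, had at most 65 counts in a library and was not called (log2 fold change 1.42, edgeR adjusted p = 0.0594), though it was by DESeq2 (adjusted p = 0.0375), with library size as the only scaling (edgeR adjusted p = 0.0346) and without I/R replicate 2 (edgeR adjusted p = 0.0335).

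The balance of the IQGAP family differed between groups in each library. Iqgap1 made up 25.3%, 29.6% and 29.9% of IQGAP FPKM in sham and 90.3%, 68.6% and 66.3% in I/R, a difference in log2 ratio of 3.12 with a pooled SD of 0.90 (exact permutation p = 0.1, Benjamini-Hochberg adjusted 0.133). These shares depend on the length used for each gene. With the table's length column they were 54.3% after I/R versus 12.3% in sham, so the direction held while the level moved.

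Vasp, on chromosome 7 from 17100727 to 17116991, encodes a protein that speeds the growth of filament ends at the leading edge and at adhesions. It was at 52.5, 37.2 and 32.9 CPM after I/R versus 18.9, 17.6 and 17.6 CPM in sham. The sham libraries were almost equal, and the lowest I/R library lay above them all. The log2 fold change was 1.18 ± 0.17 (edgeR adjusted p = 0.00176), a 2.27-fold rise. The other genes of its family were not called higher: Enah was called lower at -0.29 (edgeR adjusted p = 0.0434) but at -0.04 and not called with library size as the only scaling and lost in most other alternatives, and Evl was at -0.21 and not called (edgeR adjusted p = 0.0974). Vasp held 38.1%, 29.0% and 25.8% of Ena/VASP FPKM after I/R versus 14.8%, 13.6% and 14.1% in sham. Of its partners, Apbb1ip, which recruits VASP in leukocytes, rose by a log2 fold change of 1.61 (edgeR adjusted p = 0.00311), zyxin (Zyx) by 0.54 (edgeR adjusted p = 0.00464), and Pfn2, the profilin of neurons, fell by 0.71 (edgeR adjusted p = 0.0182). The call of Pfn2 was lost without sham replicate 1 or 2 (edgeR adjusted p = 0.0628 and 0.0648) and without the 2 libraries low in choroid plexus markers (edgeR adjusted p = 0.0521).

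In 7 families the log2 ratio of the listed gene to its paralogs differed between groups without overlap in 6, up in 5 (ERM for Msn 2.32, transgelin 3.03, tropomyosin 1.87, IQGAP 3.12 and Ena/VASP 1.43) and down in myosin regulatory light chain. Each of these 6 had an exact permutation p of 0.1, the smallest possible, and 0.133 after Benjamini-Hochberg adjustment over 8 families, so none could pass a threshold of 0.05 with 3 libraries against 3.

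Of 154 other genes of the actin cytoskeleton written down by role, 150 had a row and 147 were tested. By edgeR's test 50 (34.0%) were called higher, 39 (26.5%) lower and 58 not, with a median log2 fold change of 0.03, the same as over all tested genes. Of all tested genes 21.8% were called higher and 19.9% lower, the shares to set beside each role below. Of the calls 56.2% were higher, or 68.8% with library size as the only scaling, which moved the median of all genes to 0.28. Over all tested genes 4054 calls were higher and 3702 lower by the main test. With library size as the only scaling 34.1% of all tested genes were called higher and 10.9% lower. Most calls over all genes were thus higher too, and these shares alone do not show a lean particular to the list. Some roles differed in direction while others held calls both ways, as the plot of genes by role shows.

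**Figure D4:**
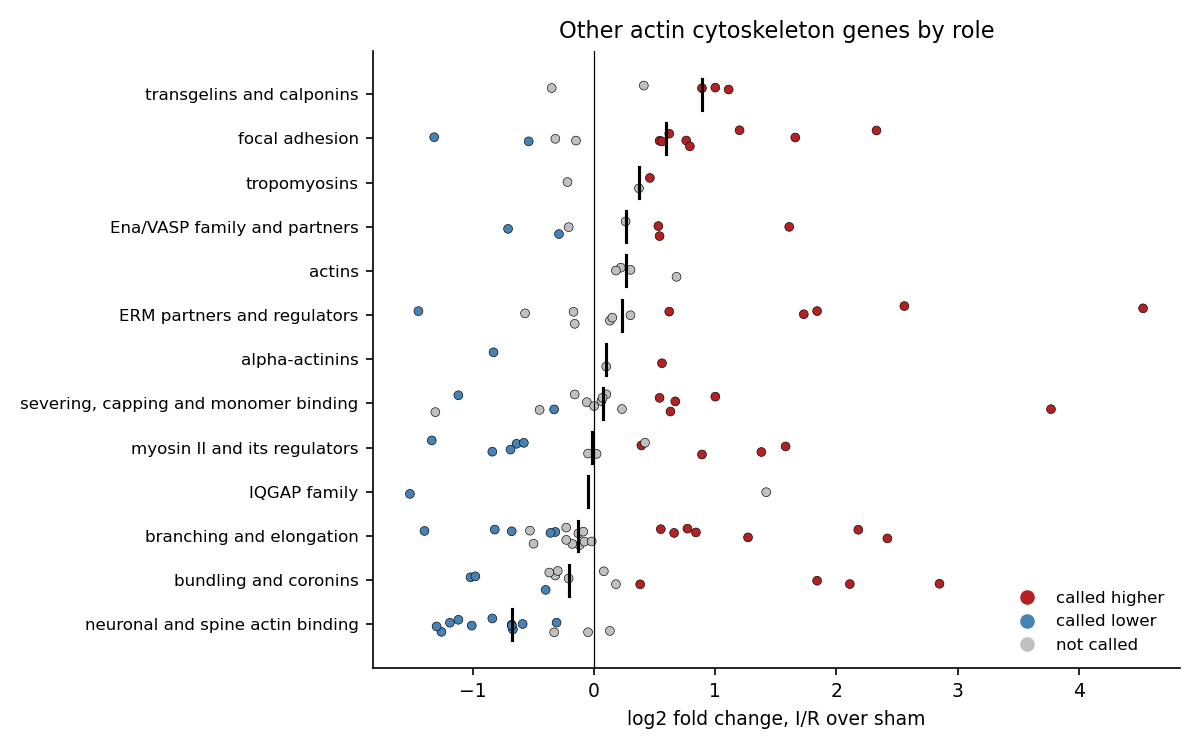
log2 fold change of I/R over sham (edgeR, TMM scaling) for tested actin cytoskeleton genes other than the 10 listed, in the 13 roles shown, in red where called higher, blue where called lower and grey where not called, with a black bar at the median of each role (1 gene of the neuronal role counts in its median and is not drawn). The calls among neuronal and spine genes lie to the left of 0, and 8 calls among focal adhesion genes to the right.

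Actin itself was not called (Actg1 was not analysed here): 0 of 4 tested actin genes passed edgeR's test (1, Actb, had an unadjusted p under 0.05, 1 was called by DESeq2 and 0 by limma-voom), and Actb, cytoplasmic beta-actin, was at 1130 ± 111 CPM after I/R versus 917 ± 20.5 CPM in sham (SD, 3 libraries each; log2 fold change 0.30, edgeR adjusted p = 0.0983). Actb was called with library size as the only scaling (0.56) and by DESeq2 (0.29, adjusted p = 0.0213). Limma on log2(FPKM + 1) and log2(FPKM + 0.1) called it too, at 0.55 in each (adjusted p = 0.0212 and 0.0159). Among focal adhesion genes 8 of 12 were called higher and 2 lower. Fermt3, the kindlin of blood cells, rose by a log2 fold change of 2.33 (edgeR adjusted p = 0.000748) and Tes, testin, by 1.66 (edgeR adjusted p = 0.00245). Tln1, the common talin, rose by 1.2 and Tln2, the talin of brain and muscle, fell by 1.32 (edgeR adjusted p = 0.00522 and 0.000472).

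Of branching and elongation genes 7 of 22 were called higher and 5 lower, led by Arpc1b, an Arp2/3 subunit (log2 fold change 2.42, edgeR adjusted p = 0.000631), and Hcls1, the cortactin relative of blood cells (2.18, edgeR adjusted p = 0.002), while Wasf1, the WAVE protein of neurons, fell by 1.40 (edgeR adjusted p = 0.0107, or 0.0628 with no filter on low counts). Of severing, capping and monomer binding genes 5 of 16 were called higher and 2 lower. Capg, a capping protein of macrophages, rose by 3.77, Capza1, a capping subunit, by 1.0, and Cap2 fell by 1.12 (edgeR adjusted p = 0.000363, 0.000315 and 0.00187). Of bundling genes and coronins 4 of 13 were called higher and 3 lower, with Plek at 2.85 and Lcp1, the plastin of leukocytes, at 2.11 (edgeR adjusted p = 0.00028 and 0.000862) and Coro2a at -1.02 (edgeR adjusted p = 0.00209). In these 3 roles 30.8% to 31.8% of tested genes were called higher and 12.5% to 23.1% lower. Over all tested genes these shares were 21.8% and 19.9%.

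The calls among neuronal and spine genes were falls. Of 15 tested, 12 were called lower and 0 higher by edgeR's test (0 higher also at an unadjusted p under 0.05, by DESeq2 and by limma-voom), with a median log2 fold change of -0.68, and with library size as the only scaling 11 were lower and 1 higher. Srf, serum response factor, which binds the CArG box, had a log2 fold change of 0.09 (edgeR adjusted p = 0.457), and its actin-sensing cofactors Mkl1 and Mkl2 fell by 0.66 and 0.71 (edgeR adjusted p = 0.0168 and 0.00337). With library size as the only scaling Srf was called higher, at 0.34, and Mkl1 was not called, at -0.42. Mkl1 was also lost without sham replicate 2 or 3 (edgeR adjusted p = 0.0566 and 0.0599).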

How the data were processed

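Hippocampal RNA-seq libraries were grouped by their titles into 3 I/R and 3 sham. The authors aligned reads with TopHat2 and counted reads per gene with HTSeq, and the deposited table gives raw counts per library. It also gives the authors' FPKM, which rest on lengths shorter than the table's length column (equal for 24.6% of 12520 genes, median ratio 0.627). Submitters' processing notes name Bowtie 0.12.2 and mm8, while identifiers and positions are those of Ensembl's BALB/cJ annotation. Use of strand in counting is not given in the sources used here. The authors' own fold change, p-value, adjusted p-value and call per gene were not used.

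The table had 41390 lines for 41386 genes, since 4 lines were split and were rejoined. The test was that of edgeR 4.0.16 (R 4.3.3, filterByExpr, TMM, quasi-likelihood F-test without covariates, Benjamini-Hochberg adjustment). Calls needed both an adjusted p under 0.05 and a change beyond 1.2-fold. TMM factors were 1.06 to 1.15 in I/R and 0.908 to 0.92 in sham. CPM are TMM-scaled. Family shares and ratios used FPKM. A library at 3 counts or fewer was taken as at the floor, and counting error only is covered. The fit was tested on simulated counts in which few genes changed, so that test cannot speak for the scaling where many genes change, as here. Alternatives were DESeq2 1.42.0, limma 3.58.1 (voom, and log2(FPKM + 1) or log2(FPKM + 0.1)), other scalings and filters, a replicate block and leaving out each library.

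Named were all 10 members, the tested paralogs of 8 families, and in each role of the actin list up to 2 called genes with the largest rise and 1 with the largest fall among those without overlap, and of marker lists the first 2 genes, not all of which are printed. Outside this rule, Acta2, Actb, Myh11, Tln1, Srf, Mkl1, Mkl2 and Slco1a4 were chosen after their values were seen. Some genes under this rule, 1 family ratio and 1 role are not reported here. Of 154 actin list genes, Actg1, Tmsb10, Mrtfa and Mrtfb were not matched by name. Members and lists were chosen with earlier results of these data known.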

Additional observations from a re-analysis of the deposited data

How the results depend on the processing

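Over 18 alternatives for each of the 10 listed genes, 180 values in all, the direction held in every one, and the call was lost in 6, 1 for Ezr and 5 for Rdx. The count of called genes among the 10 was 9 to 10 when single libraries were left out, and with a fold change over 2 it was 6. Among the actin list 89 genes were called, 69 to 95 when single libraries were left out, and 36 with a fold change over 2 (23 higher and 13 lower). With a fold change over 2, 10.2% of all tested genes were called higher and 4.67% lower. With the replicate number as a block, 9 of the 10 were called, Rdx being lost (edgeR adjusted p = 0.0575), and 82 of the actin list. The paralogs Actn4 and Enah were also lost with the block (edgeR adjusted p = 0.0623 and 0.104). Deviations from the group means correlated at -0.0967, 0.0556 and -0.184 between libraries of the same number and at -0.171 to 0.267 between the others. Deviations from a mean of 3 libraries are tied to one another, so these values cannot show whether libraries of the same number were paired. The titles give no pairing beyond the number. In the family log2 ratios, pairing by number leaves the mean as it is by construction, and the SD of the 3 paired differences was 0.18 for ERM and 1.44 for IQGAP, an alternative chosen after seeing the data. When single libraries were left out the ratio ranged from 2.15 to 2.44 for ERM, 2.66 to 3.23 for transgelin, 1.72 to 2.02 for tropomyosin, 2.40 to 3.52 for IQGAP, 1.19 to 1.60 for Ena/VASP, -0.60 to -0.47 for myosin regulatory light chain and -0.09 to 0.11 for alpha-actinin. The shares from the length column were also chosen after seeing the data, as were the choroid plexus covariate and the fit without 2 libraries, which gave 10 and 9 called. By limma on log2(FPKM + 1), where the pseudocount weighs on low values, log2 fold changes were 3.99 for Flnc, 3.93 for Cd44, 2.87 for Pf4 and -0.28 for Myh14. Each listed gene had at least 311 counts in every library. The spread between 3 pools a group sets how small a change could be called, and Rdx lies near that limit.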

Other observations

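Marker lists not described above moved as follows, by edgeR's test with the same rule. Fibroblast and meningeal markers were 200 to 298 CPM in I/R and 154 to 184 CPM in sham, with 4 of 7 called higher. Astrocyte markers were 4280 to 4560 CPM in I/R and 4310 to 4660 CPM in sham, with 2 of 6 called higher and 3 lower, against 3 higher and 2 lower with library size as the only scaling. Oligodendrocyte markers were 5900 to 6910 CPM in I/R and 7090 to 8700 CPM in sham, with 2 of 6 called lower, against 1 higher and 0 lower with library size as the only scaling and 0 called with a replicate block. Ependymal markers were 47.7 to 75.6 CPM in I/R and 37.5 to 56.4 CPM in sham, with 1 of 6 called higher and 1 lower. Platelet markers were 16.0 to 30.6 CPM in I/R and 11.7 to 12.5 CPM in sham, with 2 of 4 tested called higher, Pf4 among them (log2 fold change 3.49, edgeR adjusted p = 0.00124), and 1 lower. Of 5 erythrocyte markers 1 had a row and it was not called.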
